A study of Mus musculus with 12 samples.

Results

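Synaptotagmins are membrane proteins of synaptic vesicles and other secretory organelles. They carry a pair of domains of the C2 type. In part of the family these bind calcium and pass calcium entry on to the SNARE proteins that fuse vesicle and plasma membrane. In forebrain excitatory neurons Syt1 encodes the sensor for fast, synchronous glutamate release, and other members serve slower release, dense-core vesicles or membrane retrieval. The 10 genes described here, Syt1 to Syt7 and Syt9 to Syt11, were chosen by symbol from a RefSeq gene table, out of 21523 protein-coding genes used. They were chosen with the peak positions below already known, so their counts are a description and carry no test.

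The data are positions of c-Fos peaks in sorted nuclei from CA1, the hippocampal field of pyramidal cells that sends output to cortex, of C57BL/6 mice aged 3 to 4 weeks. c-Fos is a subunit of the AP-1 transcription factor, made in neurons after strong firing. All mice were CaMK2a-Cre/+; LSL-Sun1-GFP/+, so that Cre, driven in excitatory forebrain neurons, switches on a fluorescent nuclear envelope tag, and tagged nuclei were sorted at 50000 per reaction. In CUT&RUN an antibody directs a nuclease to release the bound DNA for sequencing. The 12 samples comprised kainic acid with c-Fos antibody, kainic acid with rabbit IgG, PBS with c-Fos antibody and PBS with rabbit IgG, at 3 replicates each, which the series calls biological without giving the number of mice in each. Kainic acid excites neurons through glutamate receptors and causes seizures, and tissue was taken 2 to 3 h after either injection. A single list was analysed, of 3295 peaks that its name calls replicated, for c-Fos relative to IgG in the kainic acid mice. It holds no signal and no value per replicate, so read depth and the spread between replicates are unknown, and the identity of the sorted nuclei could not be checked against marker genes. The comparison of kainic acid with PBS was not made, because PBS peaks were not analysed here.

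Syt1 held most of the peaks found at the 10 synaptotagmin genes. A peak midpoint lay inside the gene or within 100 kb of it for 5 of the 10 genes (50.0%, exact binomial 95% interval 18.7 to 81.3, which covers counting error only), against 21.8% of all protein-coding genes, and nothing is read from that difference because the members were chosen on these peaks. These 5 genes had 26 linked peaks, of which 21 (80.8%) were inside Syt1. The other 5 peaks flanked Syt7, Syt4, Syt6 and Syt3, and none of them lay inside 1 of the 10 genes. By gene bodies alone, 1 of the 10 had a peak, against 5.52% of protein-coding genes. Syt1 makes up 48.1% of the summed length of the 10 genes. The other 9 genes, at 553 kb together, are slightly longer than Syt1 and held 0 peaks. The median distance from gene to nearest peak was 108 kb for the 10 genes, against 360 kb over all protein-coding genes, and again nothing is read from the difference.

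**Figure D1:**
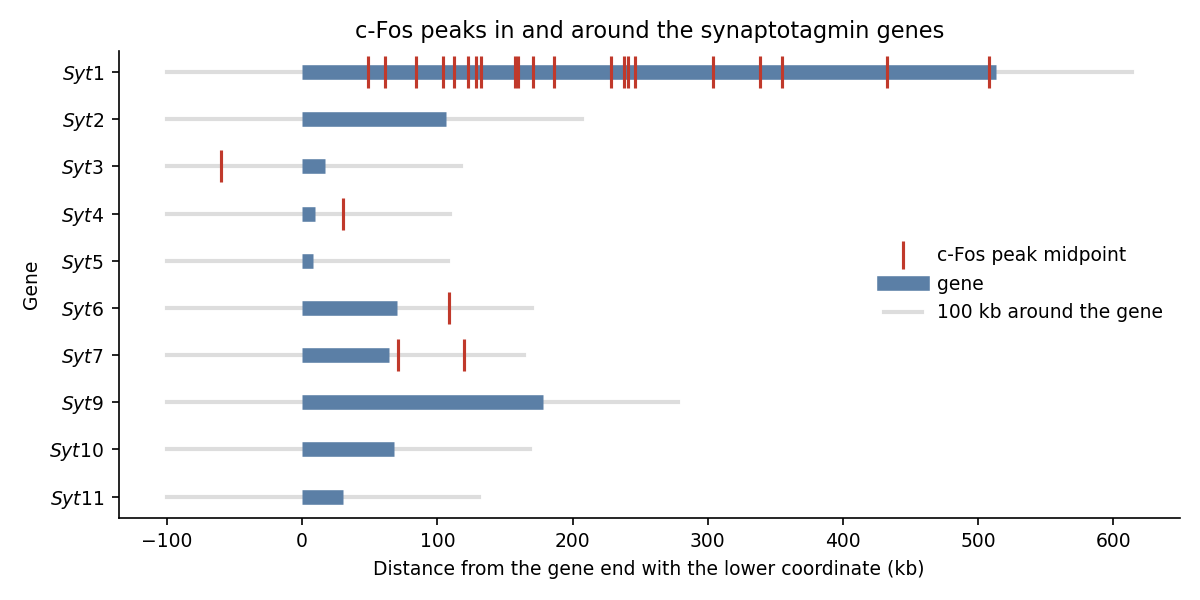
Each row is a synaptotagmin gene, drawn to scale along the horizontal axis as distance in kb from its lower-coordinate end. Thick bars are genes, thin bars the 100 kb on either side, and vertical ticks the midpoints of c-Fos peaks; 21 ticks stand inside Syt1, 5 beside Syt3, Syt4, Syt6 and Syt7, and none in the windows of Syt2, Syt5, Syt9, Syt10 and Syt11.

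Syt1 lies on chromosome 10 from 108497650 to 109010980 (mm10), a length of 513 kb, and is transcribed towards lower coordinates. Its 21 peaks correspond to 4.09 peaks per 100 kb of gene (exact Poisson 95% interval 2.53 to 6.25, for counting error only). The peaks covered 42.7 kb, or 8.31% of the gene. None overlapped another annotated gene. Both other genes in the extent of Syt1, the protein-coding Gm5136 in its interior and the lncRNA Gm36601 across its far end, held 0 peak midpoints. There was no peak in the 100 kb on either side of Syt1, and the nearest one beyond lay 502 kb away. Exons were not used here, so peaks are placed within the gene but not assigned to exon or intron.

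None of the 21 peaks was at the start of transcription. How often peaks of the whole list lie at a start is not given here, so this is not called particular to Syt1. RefSeq gives Syt1 a pair of start sites that are 1.86 kb apart, and the nearest peak, on chromosome 10 from 109004796 to 109006087, was centred 5.53 kb downstream of the outer start and 3.67 kb downstream of the inner one. The 250 bases before each start are shown because they are the promoter stretches that the peaks leave out. The bases are from RefSeq (GRCm38.p6, minus strand, 5′ to 3′), and a stretch with no capitals holds neither of the motifs searched, which were the AP-1 letters TGANTCA and the cAMP response element TGACGTCA. Both motifs read the same on either strand, and neither contains the other.
Syt1 outer start, chr10:109010976-109011225: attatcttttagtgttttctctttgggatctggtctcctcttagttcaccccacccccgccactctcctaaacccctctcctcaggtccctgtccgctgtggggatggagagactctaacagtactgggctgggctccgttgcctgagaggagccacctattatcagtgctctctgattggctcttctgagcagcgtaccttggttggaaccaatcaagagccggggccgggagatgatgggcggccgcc
Syt1 inner start, chr10:109009112-109009361: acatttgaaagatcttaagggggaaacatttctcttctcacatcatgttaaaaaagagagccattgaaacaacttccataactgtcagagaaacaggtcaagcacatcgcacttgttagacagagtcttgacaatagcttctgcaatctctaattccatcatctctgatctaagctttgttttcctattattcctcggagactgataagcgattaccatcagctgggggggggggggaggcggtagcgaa
The windows of 300 bases, which add 50 bases after the start, held 0 matches of either motif. Of all 32851 promoter windows in the table, 7.81% held the AP-1 letters and 1.79% the cAMP response element. The absence of a match says only that these letters are not in these windows. The sequence under the peaks themselves was not used here.

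Along Syt1 the peaks were more numerous and wider in the part of the gene away from the start. Divided into 5 equal parts of 103 kb from the start, the gene held 2, 2, 5, 9 and 3 peaks. The first 5 peaks were spread over the part of the gene nearest the start, centred 5.53, 81.0, 158, 175 and 209 kb downstream. The other 16 lay together between 267 and 465 kb downstream, on chromosome 10 from 108544782 to 108745232. That stretch of 200.5 kb is 39.0% of the gene and held 76.2% of its peaks, at 7.98 per 100 kb, against 1.60 per 100 kb in the rest of Syt1. Its borders were drawn after the positions were seen, at the gaps over 50 kb. The last 47.1 kb of the gene, beyond the edge of the last peak, was free of peaks.

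**Figure D2:**
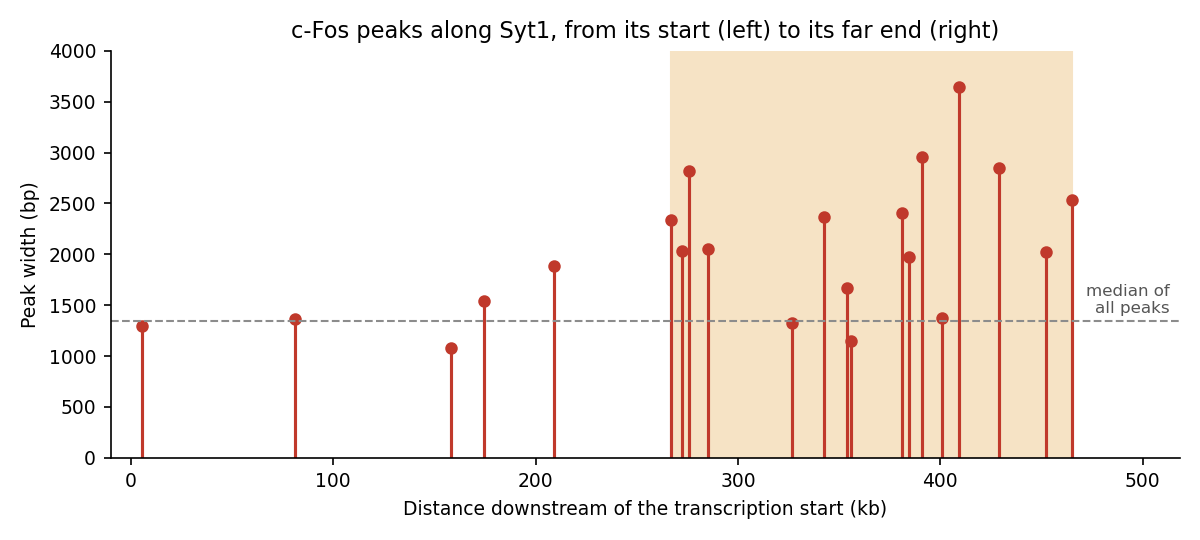
Each stem is 1 of the 21 c-Fos peaks inside Syt1, placed by distance in kb downstream of the outer transcription start, with its height giving the peak width in bp. The shaded stretch holds 16 peaks, and the dashed line marks the median width of all 3294 peaks, 1341.5 bp, which 17 of the 21 stems exceed.

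Spacing within Syt1 was uneven. The 20 gaps between neighbouring midpoints ran from 2.01 to 77.1 kb with a median of 14.3 kb (95% interval from order statistics 8.34 to 25.1 kb, over gaps and not animals) and quartiles of 7.75 and 27.5 kb. Their mean was 23.0 kb with an SD over gaps of 23.0 kb, so the SD was 1.00 times the mean. In the 5 genes nearest to Syt1 in peaks per 100 kb, described below, this ratio ran from 0.38 in St6galnac5 to 1.38 in Nell2. The unevenness is therefore not particular to Syt1. The longest gaps, 77.1, 75.5 and 57.6 kb, all lay between the first 6 peaks from the start. In the dense stretch the median gap was 10.1 kb. There, 3 groups of close neighbours were picked out by eye. The first was centred 267, 272, 276 and 285 kb downstream, with gaps of 5.23, 3.48 and 9.36 kb. The second was a pair at 354 and 356 kb, whose edges were 601 bp apart, the shortest space between any neighbours in the gene. A further peak at 343 kb had its centre 11.2 kb from the one at 354 kb. The third ran from 381 to 409 kb and held 5 peaks with gaps of 3.91, 5.98, 10.1 and 8.34 kb. In all, 12 of the 21 Syt1 peaks (57.1%) had a neighbour within 12500 bp, against 443 of the other 3273 peaks (13.5%). Nothing is read from that difference, because Syt1 was chosen with these positions known.

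Peak width was larger in Syt1, a gene chosen with earlier results of these data known, than in the list at large. The 21 widths had a median of 2027 bp and ran from 1078 to 3645 bp, against a median of 1339 bp (quartiles 1094 and 1692 bp) for the other 3273 peaks. Of the Syt1 peaks 11 (52.4%) were at least 2 kb wide, against 14.1% of the others. The widest, on chromosome 10 from 108599989 to 108603633, was centred 409 kb downstream of the start. The ranges overlap fully, and peaks of 1 list are not replicates, so this is given without a test. Other peaks inside protein-coding genes of 100 kb or more had a median of 1361 bp, and other peaks with a neighbour within 12500 bp had 1499 bp. In the 5 genes nearest to Syt1 in peaks per 100 kb, described below, medians ran from 1508 bp in Nell2 to 3193 bp in St6galnac5. The Syt1 median lay within that range. Within Syt1 the 16 peaks of the dense stretch had a median of 2194 bp (1149 to 3645 bp) and the 5 peaks nearer the start 1369 bp (1078 to 1888 bp).

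**Figure D3:**
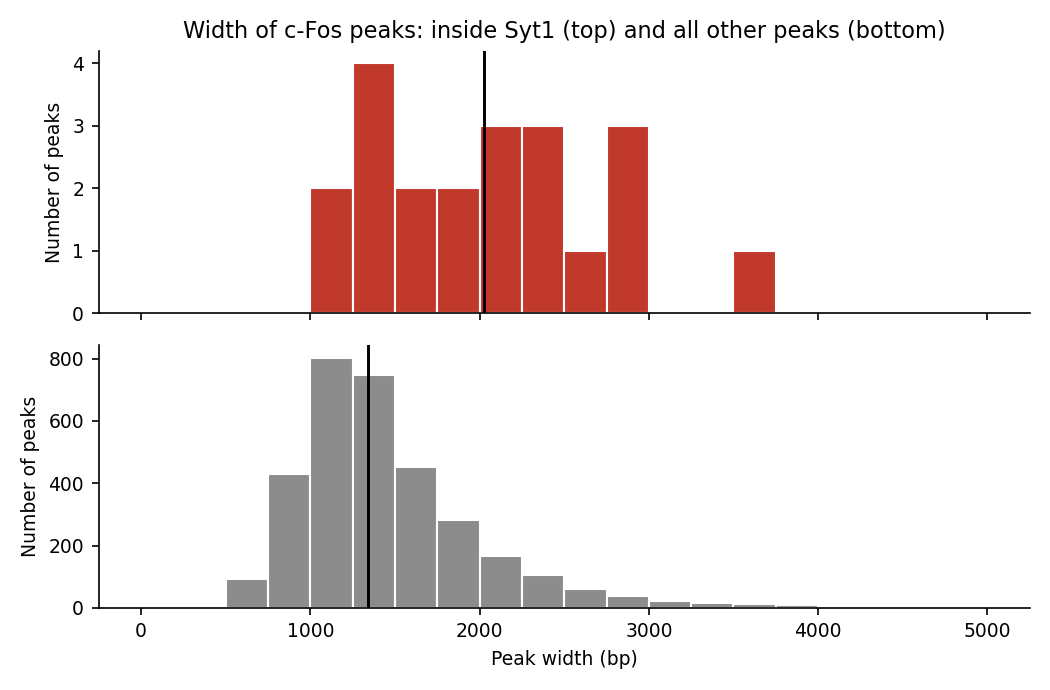
Number of peaks by width in bins of 250 bp, for the 21 peaks inside Syt1 (top) and the other 3273 peaks (bottom), with vertical lines at the medians of 2027 and 1339 bp. The 18 other peaks over 5000 bp wide are not drawn.

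Set against other long genes, Syt1 had the highest number of peaks per 100 kb. There were 2425 protein-coding genes of 100 kb or more, of which 689 (28.4%) had a peak inside. Syt1 ranked 1 of 2425 by peaks per 100 kb and 2 by their number, after the 26 peaks of Dlgap1, a gene for a postsynaptic scaffold protein. Over all these genes together the density was 0.193 per 100 kb, 21.1 times below that of Syt1. Of 200 genes of 400 to 600 kb, 50.5% had a peak inside, the median gene had 1, and the highest after Syt1 was Enox1 with 9. This length range was chosen after the values were seen. When chains of peaks within 12500 bp of each other were counted once, Syt1 had 12 peaks, or 2.34 per 100 kb, and ranked 4.

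**Figure D4:**
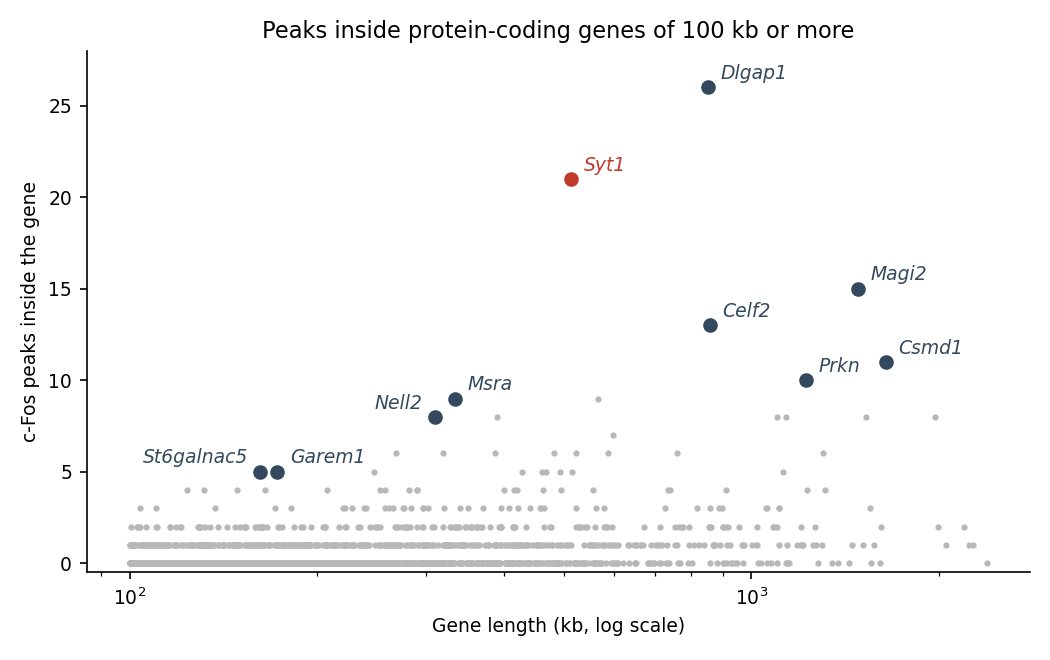
Each point is 1 of 2425 protein-coding genes of 100 kb or more, by gene length in kb on a log axis and the number of c-Fos peaks inside. Syt1, with 21 peaks in 513 kb, stands above all genes of its length, and Dlgap1 is the only gene with more peaks.

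The 5 genes nearest to Syt1 in peaks per 100 kb, among the 32 genes of 100 kb or more that had at least 5 peaks inside, were St6galnac5, Dlgap1, Garem1, Msra and Nell2. The likeness is in this 1 measure from 1 list. St6galnac5, a sialyltransferase gene, had 5 peaks at 3.08 per 100 kb, with gaps of 20.7 to 50.9 kb. Dlgap1 had 3.05 per 100 kb with a median gap of 15.4 kb, close to the 14.3 kb of Syt1. Of its 25 gaps, 10 (40.0%) were within 12500 bp, against 9 of 20 (45.0%) in Syt1. Msra, encoding a methionine sulfoxide reductase, had 9 peaks with a median gap of 21.7 kb. Garem1 had 5 peaks with a median gap of 19.5 kb. In Nell2, which encodes a secreted glycoprotein of neurons, 8 peaks had a median gap of 5.70 kb, and 4 of the 7 gaps were within 12500 bp. Median peak widths in these genes ran from 1508 bp in Nell2 to 3193 bp in St6galnac5. Within 200 kb, the largest number of peaks anywhere in the list was the 16 of Syt1, followed by 12 in Dlgap1 and 9 each in Msra and Magi2, a synaptic scaffold gene.

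**Figure D5:**
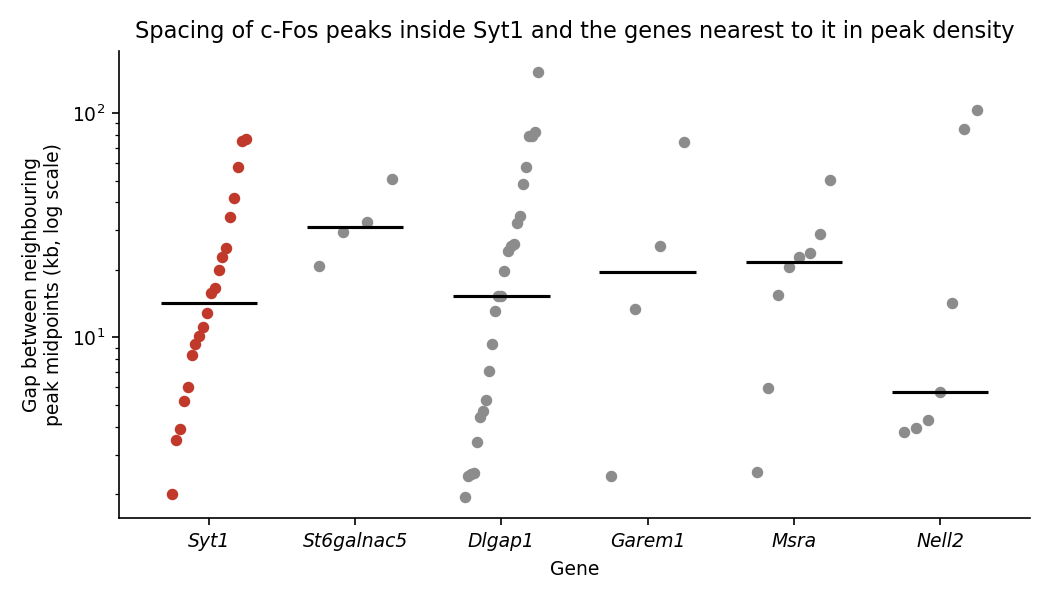
Gaps between neighbouring c-Fos peak midpoints in kb, on a log axis, for Syt1 and the 5 genes nearest to it in peaks per 100 kb. Points are single gaps sorted by size within each gene and lines are medians, 14.3 kb for Syt1 and 15.4 kb for Dlgap1.

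The other members known as sensors for fast release, Syt2 and Syt9, had no linked peak. Syt2, the main fast sensor in hindbrain and in some inhibitory neurons, spans 107 kb of chromosome 1, and its nearest peak, inside Ppp1r12b, lay 157 kb from the gene. Syt9, a fast sensor of striatal and limbic neurons, spans 178 kb of chromosome 7, and its nearest peak lay 1749 kb away. Of the 3 members of 100 kb or more, Syt1 was the only one with a linked peak, against 42.6% of protein-coding genes of that length. As the members were chosen on these peaks, nothing is read from that share either. Syt2 has an AP-1 match before its inner start, and is shown for contrast with Syt1, with the match in capitals (RefSeq, GRCm38.p6, plus strand, 5′ to 3′).
Syt2 inner start, chr1:134709050-134709299: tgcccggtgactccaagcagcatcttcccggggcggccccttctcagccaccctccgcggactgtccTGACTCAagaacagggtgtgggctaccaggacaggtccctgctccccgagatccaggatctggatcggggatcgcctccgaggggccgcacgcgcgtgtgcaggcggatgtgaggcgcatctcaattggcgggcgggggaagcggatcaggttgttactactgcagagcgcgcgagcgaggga
The match begins 183 bases before the start, and the nearest peak to that start was 200.4 kb away. Of the 11 promoter windows found for 7 of the members, 2 held the AP-1 letters, the other being 1 of 3 windows of Syt6, and 0 held the cAMP response element. No member window overlapped a peak. The share of all promoter windows under a peak is not given here, so nothing is read from that count. Syt4, Syt5 and Syt7 had no window in the table.

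Among the remaining calcium-binding members, Syt7, the sensor for asynchronous release and synaptic facilitation, had the flanking peak closest to its gene, and a second one farther off. It spans chromosome 19 from 10388802 to 10453181, and its peaks lay 6.89 and 55.7 kb beyond the end with the higher coordinate. The nearer one, from 10459506 to 10460640, was closer still to Lrrc10b, at 2.63 kb, and the farther one overlapped Sdhaf2, a gene for assembly of a mitochondrial respiratory enzyme. Syt3, which in rodents takes part in the retrieval of AMPA receptors after activity, had 1 peak at a distance of 60.2 kb (chromosome 7, 44321451 to 44323674). That peak lay inside Shank1, a postsynaptic scaffold gene, and 4 protein-coding genes were nearer to it than Syt3. Syt6, known from membrane fusion in sperm, had 1 peak 38.1 kb beyond its far end on chromosome 3, from 103682975 to 103684357, outside any annotated gene. Syt10, which belongs with Syt3 and Syt6 by sequence and is known in rat brain as a seizure-induced gene, had no linked peak; its nearest was 220 kb away.

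Syt4 and Syt11 form a branch whose first C2 domain lacks a calcium-binding residue. Syt4, known in rodents as an activity-induced gene and as a protein of Bdnf-containing vesicles, had 1 peak 20.4 kb beyond its higher-coordinate end on chromosome 18, from 31466814 to 31468761. That peak was 1948 bp wide and overlapped no annotated gene, and Syt4 was the protein-coding gene nearest to it. Syt11, which acts in vesicle membrane retrieval, had its nearest peak 859 kb away. Syt5 had its nearest peak 952 kb away. Of the 26 peaks linked to the 10 genes, those of Syt1, Syt4 and Syt6 had that synaptotagmin as their nearest protein-coding gene, whereas those linked to Syt3 and Syt7 had another gene nearer. The 5 flanking peaks were 1135 to 2259 bp wide with a median of 1948 bp. Of the 7 members under 100 kb, 4 had a linked peak (57.1%), against 19.2% of protein-coding genes under that length. Again nothing is read from the difference, because the members were chosen with these peaks known. The distance limit fell in an empty range for these genes: the farthest linked peak was at 60.2 kb, and the nearest peak just outside the limit was at 157 kb, beside Syt2.

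In the related genes examined, no gene held more than 3 peaks. Of the other 7 synaptotagmin genes (Syt8 and Syt12 to Syt17), 1 had a linked peak (14.3%, against 21.8% of protein-coding genes). That gene was Syt17, with 2 peaks inside its 67.9 kb and 4 linked. Its 2.95 peaks per 100 kb of gene, from 2 peaks in a gene too short for the ranking of long genes, stood beside 4.09 in Syt1 and 3.05 in Dlgap1. Napa, a short release gene described below, had 5.06 per 100 kb, above Syt1, from 1 peak in 19.8 kb. Of 11 genes for related proteins with C2 domains, 3 had 1 linked peak each (27.3%, near the 21.8% of protein-coding genes) and 0 had one inside, against 5.52% of protein-coding genes. These were Rph3a, which encodes the Rab3 effector rabphilin (9.64 kb), Sytl5 (47.7 kb) and Sytl3 (89.7 kb), genes of the synaptotagmin-like family. Of 39 genes of the vesicle release machinery, 18 had a linked peak (46.2%, against 21.8% of protein-coding genes) and 11 had one inside (28.2%, against 5.52% of protein-coding genes), but none had more than 4 linked. Gene length differed between these groups, so the counts were also split by length. Of the 17 release genes of 100 kb or more, 11 had a linked peak (64.7%, against 42.6% of protein-coding genes of that length) and 8 had one inside (47.1%, against 28.4%). Of the 22 shorter ones, 7 had a linked peak (31.8%, against 19.2%) and 3 had one inside (13.6%, against 2.61%). The split by length does not remove the effect of choice, because these lists were chosen with earlier results of these data known. Nothing is therefore read from their differences from protein-coding genes, here or below.

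Among the release genes, Napb and Napa, encoding SNAP proteins that help take SNARE complexes apart, had 4 and 2 linked peaks. A peak at Napa (chromosome 7, 16097834 to 16099105) had its centre 110 bp from the start of transcription. The promoter window of Napa lay under this peak. The share of all promoter windows under a peak is not given here, so nothing is read from that overlap. Erc2, an active zone scaffold gene of 856 kb, had 3 peaks inside. Rimbp2, which ties calcium channels to release sites, Cadps2, a priming factor for dense-core vesicles, and Ppfia2, a liprin of the presynaptic scaffold, had 2 peaks inside each. Of the 7 release genes of 400 to 600 kb, the range that holds Syt1 with its 21 peaks, Ppfia2 (464 kb) and Cadps2 (578 kb) were the only ones with a peak inside (28.6%, against 50.5% of protein-coding genes of that length). The other 5, Rims1 (520 kb), Unc13c (529 kb), Rims2 (486 kb), Cadps and Syn3, held 0 peaks.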

How the data were processed

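The sources were the sample labels and 1 deposited peak list of 3 columns (chromosome, start, end) without header or score. Its name describes replicated peaks of c-Fos against IgG after kainic acid, and it was treated as a list of that group. The authors worked with SEACR 1.1, Bowtie2 2.2.9, Trimmomatic 0.36 and bedtools 2.27.1 on the builds mm10 and sacCer3, per the submitters' processing notes. Their roles and settings, and the peak threshold, were not given in the sources used here. Of 3295 peaks, 3294 on 20 chromosomes were used, with positions 1-based.

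Genes came from a RefSeq table of GRCm38.p6, the assembly behind mm10; 340 of 49997 genes, starting below 3000000 on these chromosomes, were left out as misplaced. Strand and start sites came from RefSeq promoter windows. A peak was linked to a gene when its midpoint lay inside or within 100 kb. Counting code (Python 3.11.15, numpy 2.4.6, scipy 1.17.1) was tested on simulated peaks.

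The members and lists were chosen with earlier results of these data known. Named genes were the members, up to 6 per list with most linked peaks, and 5 genes nearest to Syt1 in density; Enox1, Magi2, the dense stretch and the window of 200 kb were chosen after values were seen. The list holds no value per replicate, so no test was made.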

Additional observations from a re-analysis of the deposited data

How the results depend on the processing

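No paired analysis was possible because replicates have no values of their own in the list; for the same reason no replicate was left out. With gene bodies only, 1 member had a peak, and with 10 kb around the gene 2 had one, since both windows hold fewer peaks by construction; with 50 kb, 250 kb, wider peaks or any overlap, 4 to 7 had one. The background share was 5.52% with gene bodies, 7.55% with 10 kb, 14.0% with 50 kb, 39.6% with 250 kb and 20.4% with all gene types, against 21.8%. Counting neighbours within 12500 bp once gave 17 linked peaks instead of 26, 12 in Syt1 instead of 21, 2.34 per 100 kb instead of 4.09 and a median gap of 35.9 kb instead of 14.3 kb, since chains are joined. Restricting to the wider peaks (1647), merging within 500 bp and any overlap gave 17 to 21 peaks in Syt1, and with wider or merged peaks Syt1 ranked 1 in density. The median gap was 12.0 kb with wider peaks and 12.2 kb edge to edge. Merging for peak width was chosen after seeing the data and left the Syt1 median at 2027 bp. Of 60 alternatives for single members, 46 stayed within 1.5 times the reported count. Part of these 46 was fixed in advance. Syt2, Syt5, Syt9, Syt10 and Syt11 had no linked peak, and smaller windows or the wider peaks alone cannot add one. The share that stayed is therefore not read as a measure of stability. Read depth is unknown, so weaker binding below the authors' threshold was not detectable here.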
